A study of Rattus norvegicus with 16 samples.

Results

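The skeletal myosin heavy chain cluster of the rat lies on chromosome 10, and 3 of the 32552 genes in the count files were taken as its members: ENSRNOG00000046276, ENSRNOG00000049695 and ENSRNOG00000050042. They were chosen by position (chromosome 10, plus strand, a lowest start within a window of 450000 bases that holds the cluster) and by at least 5500 exonic bases, and only the first 2 meet all of these limits. The third is named in the rule, which asks for more exonic bases than its 4437, and it was kept as a named member. It is therefore described with its values and without a test. The region was also chosen with results of these data known, so an adjusted p for the other 2 genes is not independent evidence.

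The samples were abdominal walls of 12-week-old Sprague Dawley rats, labelled female, taken under an adhesive or a non-adhesive implant on day 3 or day 14 post-implantation, which gave 4 groups of 4 libraries, 16 altogether. The non-adhesive implant was the adhesive implant swollen in PBS until it no longer bonded, and it was fixed at its corners with sutures, where the adhesive implant was pressed on, so sutures go with every comparison of the implants. No library of an unoperated wall was compared here, and it is not stated that every library is from its own rat, so the p values reflect only the spread of these samples, which may be technical. The labels' extraction text speaks of day 10 wounds and the study's methods of rats of both sexes; groups here follow the description of each sample. The comparison of the implants asks how the tissue under a bonded implant differs from that under a sutured one, and the comparison of the days asks how each changes with time.

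Myosin heavy chain is the motor of the thick filament, and the chain that a skeletal muscle fibre makes largely sets how fast it shortens. Mammals keep most of the sarcomeric heavy chain genes of skeletal muscle in 1 tandem cluster, in which an embryonic chain (Myh3), the chains of fast adult fibres (Myh2, Myh1 and Myh4), a perinatal chain (Myh8) and an extraocular chain (Myh13) follow each other. The embryonic and perinatal chains are made in developing muscle and again in regenerating fibres, and the adult fast chains replace them as fibres mature. In the RefSeq gene table for the GRCr8 assembly, the same 6 symbols stand in this order between Sco1 and Gas7. No table used here pairs them with the gene identifiers of the count files, so the members carry no symbol below.

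ENSRNOG00000046276 spans chromosome 10 from 53621375 to 53645194 and has 6035 exonic bases in 42 exons. ENSRNOG00000049695 spans 53713938 to 53848347 and has 18143 exonic bases in 121 exons. Its exons fall into 3 blocks set apart by gaps of over 10000 bases, with 78 exons from 53713938 to 53764610, 40 exons from 53778662 to 53801603 and 3 exons from 53846011 to 53848347. ENSRNOG00000050042 spans 53818818 to 53918524 and has 4437 exonic bases in 34 exons, of which 32 lie between 53818818 and 53840185 and 2 between 53917278 and 53918524. Coordinates are given as the count files hold them. Their build is not settled, since the study's methods name mRatBN7.2 and the labels name GRCm38, and chromosome 1 reaches position 282724300 in the files, more than its length in either of these builds.

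All 3 gene models hold a run of 9 exons with the lengths 88, 118, 124, 137, 256, 243, 177, 146 and 91 bases, 1380 bases in all. ENSRNOG00000046276 and ENSRNOG00000050042 hold it in 1 copy and ENSRNOG00000049695 in 3 copies. A second run of 11 exon lengths towards the 3′ end is held in 1 copy by ENSRNOG00000046276, in 3 copies by ENSRNOG00000049695 and in 0 copies by ENSRNOG00000050042. Only 1 other gene in the count files holds the run of 9 lengths, ENSRNOG00000018997 on chromosome 3. ENSRNOG00000049695 is thus a merged model with the exons of more than 1 heavy chain gene, and its count cannot be divided among them. The spans of ENSRNOG00000049695 and ENSRNOG00000050042 overlap by 29530 bases, with 0 exonic bases in common. Heavy chain genes have closely similar coding sequences, and the sources used here do not state how reads with several matches, or the strand, were handled in the counting, so some reads of 1 member may have been counted in another or left uncounted.

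**Figure D1:**
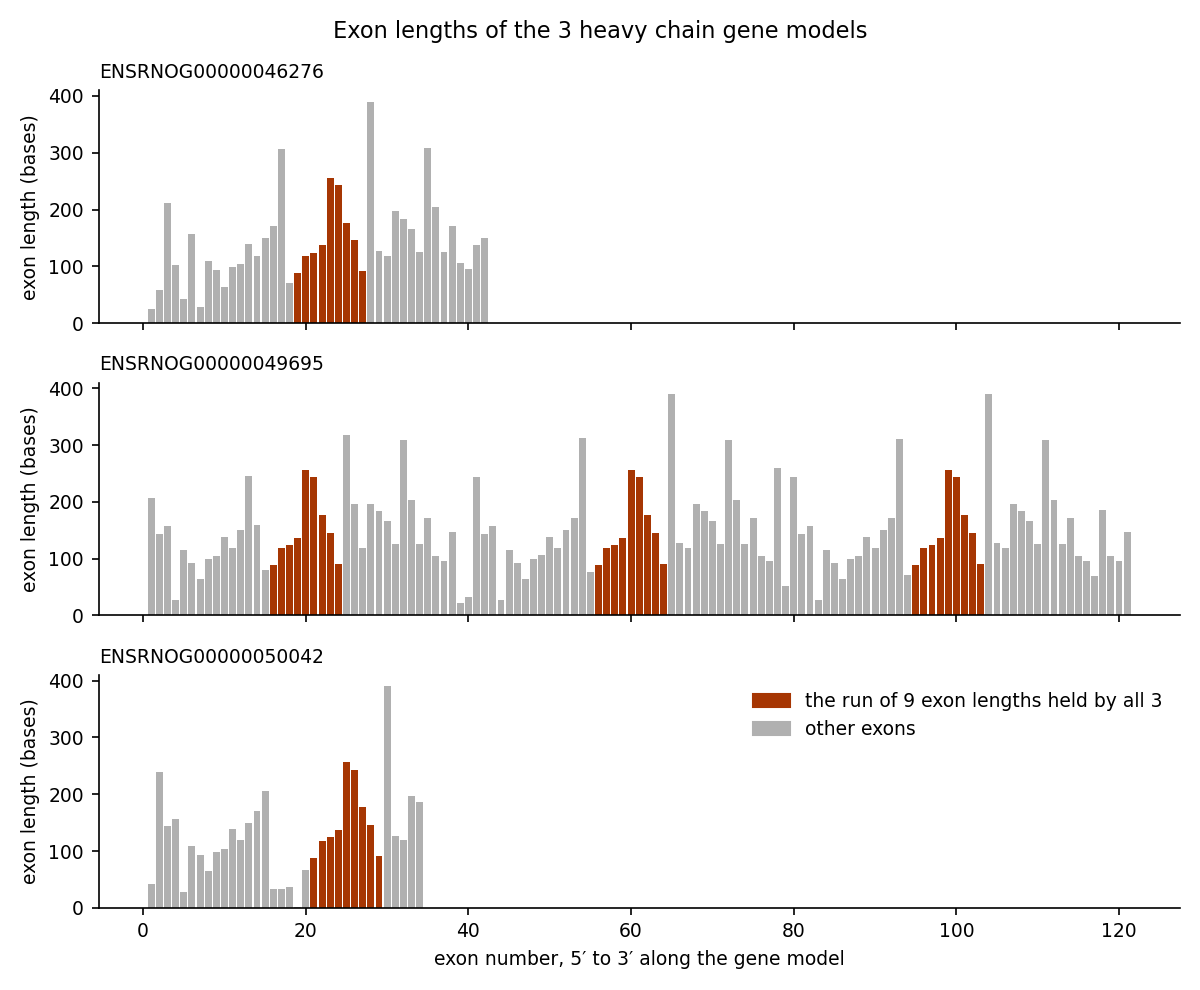
Exon lengths in bases (vertical axis) by exon number from 5′ to 3′ (horizontal axis) for the 3 gene models, with the shared run of 9 exon lengths in brown and the other exons in grey. The run appears once in the 42 exons of ENSRNOG00000046276, in 3 places in the 121 exons of ENSRNOG00000049695 and once in the 34 exons of ENSRNOG00000050042.

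The window held 10 genes, and the other 7 fell short of the length limit or lie on the minus strand. Tmem220 and Adprm, which come before the heavy chain genes in the RefSeq order, also come before the members in the window. Tmem220 on the plus strand had 15 to 112 counts per library and Adprm on the minus strand 141 to 636. The plus-strand gene nearest to the length limit from below, after ENSRNOG00000050042, was ENSRNOG00000028699 with 1578 exonic bases and 143 to 385 counts. ENSRNOG00000053014 on the minus strand had 5 to 119 counts. The remaining 3, ENSRNOG00000057964, ENSRNOG00000054337 and ENSRNOG00000052646, had at most 1, 1 and 5 counts in any library.

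RefSeq lists 6 heavy chain genes in this cluster, and the promoters of 4 are given here. Each runs from 250 bases before the start of the gene to 50 bases after it. Capitals mark the letters TATAAA, the core of a TATA box, on the strand of the gene, and the longest run of bases shared by Myh2, Myh1 and Myh4.
Myh3 (chr10:52268935-52269234, GRCr8, plus strand): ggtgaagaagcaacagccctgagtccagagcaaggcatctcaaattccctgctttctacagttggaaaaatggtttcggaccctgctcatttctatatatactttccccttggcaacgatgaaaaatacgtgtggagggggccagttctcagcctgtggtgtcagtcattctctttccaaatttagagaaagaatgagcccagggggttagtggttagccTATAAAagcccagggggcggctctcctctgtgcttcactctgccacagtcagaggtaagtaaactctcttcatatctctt
Myh2 (chr10:52355489-52355788, GRCr8, plus strand): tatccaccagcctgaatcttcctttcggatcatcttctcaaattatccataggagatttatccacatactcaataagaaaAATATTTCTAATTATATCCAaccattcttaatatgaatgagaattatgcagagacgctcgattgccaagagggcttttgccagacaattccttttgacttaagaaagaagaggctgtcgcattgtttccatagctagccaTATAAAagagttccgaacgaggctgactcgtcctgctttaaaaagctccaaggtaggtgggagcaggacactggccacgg
Myh1 (chr10:52384662-52384961, GRCr8, plus strand): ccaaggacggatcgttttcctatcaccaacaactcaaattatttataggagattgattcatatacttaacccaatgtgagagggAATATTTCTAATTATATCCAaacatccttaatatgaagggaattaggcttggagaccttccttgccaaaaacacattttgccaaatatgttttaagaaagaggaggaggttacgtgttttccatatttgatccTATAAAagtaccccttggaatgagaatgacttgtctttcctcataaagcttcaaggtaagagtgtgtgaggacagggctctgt
Myh4 (chr10:52421898-52422197, GRCr8, plus strand): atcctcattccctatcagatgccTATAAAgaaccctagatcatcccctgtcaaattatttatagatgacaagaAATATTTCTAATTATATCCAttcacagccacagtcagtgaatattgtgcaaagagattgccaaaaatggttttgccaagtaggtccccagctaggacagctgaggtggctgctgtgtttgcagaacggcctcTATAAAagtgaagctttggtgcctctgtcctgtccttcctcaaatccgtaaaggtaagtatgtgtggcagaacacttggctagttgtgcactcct
The shared run, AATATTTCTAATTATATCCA, is 20 bases long and ends 150, 146 and 157 bases before the start of Myh2, Myh1 and Myh4. Of all 33469 RefSeq promoters of this length, 5 hold it on either strand, which is 0.0149%. These are the 3 printed here and 2 entries of LOC102555216, also on chromosome 10. The embryonic Myh3 does not have it, and its longest run in common with Myh2, Myh1 and Myh4 is 9, 10 and 11 bases. Myh8 and Myh13, not printed here, hold neither the run nor TATAAA on either strand. With Myh2, Myh1 and Myh4, the longest runs in common are 10, 8 and 9 bases for Myh8 and 7, 8 and 9 for Myh13. TATAAA stands on the gene strand in 4 of the 6 promoters and on either strand in 4, against 8.80 and 14.2% of all promoters. It begins 30 bases before the start in Myh3 and in Myh2, 33 in Myh1, and 45 and 227 in Myh4. The motif TATAAA and the shared run do not overlap in these 4 windows. These are matches of letters in the window, and the counts below could not be assigned to single promoters.

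The 3 members differed widely in level. Levels are given as CPM, the count as a part of a library total set to 1000000 and scaled by TMM, which corrects for differences in composition between libraries. Levels of different genes are compared only as CPM per kilobase of exon. ENSRNOG00000049695 was the gene with the most counts in 12 of 16 libraries and ranked between 1 and 7 in all. It took 1.33 to 5.91% of all counts of an adhesive library and 0.659 to 2.66% of a non-adhesive library on day 3, against 4.64 to 6.64% and 3.95 to 5.15% on day 14. On CPM per kilobase it carried 97.2% ± 2.31 (SD, n = 4) of the summed level of the 3 members in adhesive and 98.7% ± 0.417 in non-adhesive libraries on day 3, and 97.6% ± 1.09 and 99.7% ± 0.176 on day 14. Its mean level was 1411 and 798 CPM per kilobase under adhesive and non-adhesive implants on day 3, and 4192 and 2847 on day 14, which ranked it 32, 82, 27 and 33 among 32552 genes. ENSRNOG00000046276 stood at 22.8, 9.82, 82.5 and 5.62 CPM per kilobase in the same 4 groups, ranks 3116, 5769, 927 and 7891. ENSRNOG00000050042 was the lowest of the members in each group, at 2.14, 1.08, 15.0 and 3.11 CPM per kilobase. Since the model of ENSRNOG00000049695 holds 3 copies of the shared run, its level per kilobase is an average over the genes merged in it. The model of ENSRNOG00000050042 lacks the second run towards the 3′ end, and the last 3 exons of ENSRNOG00000049695 lie within its span. The level of ENSRNOG00000050042 and its ratio to ENSRNOG00000049695 may therefore not cover a whole heavy chain gene. In bulk tissue, fewer muscle fibres and less of an RNA per fibre cannot be told apart.

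Library totals ran from 18616084 to 24858976 counts on day 3 and from 13852126 to 16801635 on day 14, so every day 14 library was shallower than every day 3 library, and a batch that follows the day cannot be told apart from the day. ENSRNOG00000046276 had 245 to 9234 counts in a library, ENSRNOG00000049695 137775 to 1109936 and ENSRNOG00000050042 39 to 976. Non-adhesive replicate 4 of day 14 stood apart from its group. Ptprc, the common leukocyte antigen and the only 1 of 10 leukocyte markers with a symbol, was at 16.5 CPM in it and at 64.5 to 138 in the other 3. Its summed level of 5 of 8 fibroblast markers (Col1a1, Col3a1, Pdgfra, Dcn and Lum) was the lowest of its group at 2150 CPM, where the group reached 16094. Its TMM factor was the lowest of all libraries at 0.619. The other 3 of its group had factors of 0.988 to 1.03, and the adhesive libraries of day 14 had 0.668 to 0.917. The members' tests on day 14, the counts of muscle genes called and the marker levels are given with and without non-adhesive replicate 4, and correlations only with it. The muscle gene counts and marker levels without that library were added after seeing the data. It was marked out in part by these markers, so their separation without it is not independent evidence.

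On day 14, ENSRNOG00000046276 was higher under adhesive than under non-adhesive implants. Its level was 417, 457, 805 and 313 CPM in the 4 adhesive libraries, a mean of 498 ± 213 CPM (SD, n = 4). In the 4 non-adhesive libraries it was 60.3, 16.7, 17.1 and 41.4 CPM, a mean of 33.9 ± 21.1. Every adhesive library was above every non-adhesive library, and the lowest adhesive level was 5.20 times the highest non-adhesive level. The fitted log2 fold change was 3.87 (SE 0.53), which is 14.7-fold, with an adjusted p of 0.0353 by edgeR's quasi-likelihood test with Benjamini-Hochberg adjustment over 13557 genes. Genes were called where the adjusted p did not exceed 0.05 and the log2 fold change was 1 or more in either direction, which held for 0.266% of the genes tested (36) in this comparison. DESeq2 gave an adjusted p of 2.74e-12 for this gene with 3.5% of genes called, and limma-voom one of 0.0330 with 0.199% called. ENSRNOG00000046276 ranked 4 among all genes tested by log2 fold change. Of 8 fits that each left out a library, 1 kept the call, that without non-adhesive replicate 4 (log2 fold change 3.97, adjusted p 0.00778), and leaving out any other library of day 14 ended it. Over the 8 fits the adjusted p ran from 0.00778 to 0.142 and the log2 fold change from 3.54 to 4.32. Without non-adhesive replicate 4, myoglobin and the summed fibroblast and satellite cell markers also stood apart between the implants, as given with the markers. Taken singly without that library, Dcn among the fibroblast and Chodl among the satellite cell markers overlapped. Eno3 (log2 fold change 0.51, adjusted p 0.165 by edgeR) and Atp2a2 (0.37, adjusted p 0.309), muscle genes given below, were not called there. The part of these genes in this result was not tested.

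ENSRNOG00000049695, which carries nearly all of the cluster's reads, overlapped between the implants on day 14. It stood at 94867, 50631, 75456 and 83238 CPM in the adhesive libraries, a mean of 76048 ± 18728 (SD, n = 4). The non-adhesive libraries had 40211, 39657, 43428 and 83310 CPM, a mean of 51651 ± 21171, with replicate 4 near the top of the adhesive range and the other 3 below every adhesive library. The log2 fold change was 0.56 (SE 0.38, adjusted p 0.543 by edgeR), and the gene was not called. Without non-adhesive replicate 4 the log2 fold change was 0.87 and the adjusted p 0.0478, under the fold change limit for a call.

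ENSRNOG00000050042 had 69.2, 73.9, 73.7 and 48.6 CPM in the adhesive libraries of day 14, a mean of 66.3 ± 12.0 (SD, n = 4). It had 14.1, 10.3, 14.3 and 16.5 CPM in the non-adhesive libraries, a mean of 13.8 ± 2.58. The groups did not overlap, and the lowest adhesive library stood at 2.94 times the highest non-adhesive library. The fitted log2 fold change was 2.27 (SE 0.20), and 2.35 without non-adhesive replicate 4, a description without a test. Of the 14601 genes with enough counts in the 16 libraries, 8.67% did not overlap between the implants on day 14, and 2 of the 3 members, ENSRNOG00000046276 and ENSRNOG00000050042, were among them.

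On day 3 each member overlapped between the implants. ENSRNOG00000046276 had 61.5, 91.5, 135 and 263 CPM in the adhesive libraries and 38.4, 73.6, 17.0 and 108 CPM in the non-adhesive libraries, with means of 138 ± 88.7 and 59.3 ± 40.1 (SD, n = 4). Adhesive replicates 3 and 4 lay above all non-adhesive libraries. The log2 fold change was 1.25 (SE 0.60, adjusted p 0.717 by edgeR). ENSRNOG00000049695 stood at 59923, 10673, 18822 and 12955 CPM in the adhesive and at 8443, 25283, 5323 and 18829 CPM in the non-adhesive libraries, with means of 25593 ± 23142 and 14469 ± 9236. The adhesive mean rested on replicate 1, and the log2 fold change was 0.82 (SE 0.66, adjusted p 0.828 by edgeR) with it and -0.017 (adjusted p 0.996) without it. ENSRNOG00000050042 had 19.9, 3.83, 5.98 and 8.25 CPM in the adhesive and 3.23, 6.21, 1.51 and 8.16 CPM in the non-adhesive libraries, with a fitted log2 fold change of 0.99 (SE 0.60) that fell to 0.37 without adhesive replicate 1. On day 3, 0.0% of 14223 genes were called by edgeR, with 1022 genes at an unadjusted p under 0.05, where DESeq2 called 69 genes (0.485%) and limma-voom 0 (0.0%). Over all 14601 genes with enough counts in the 16 libraries, 4.16% did not overlap between the implants on this day, and 0 of the 3 members were among them.

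**Figure D2:**
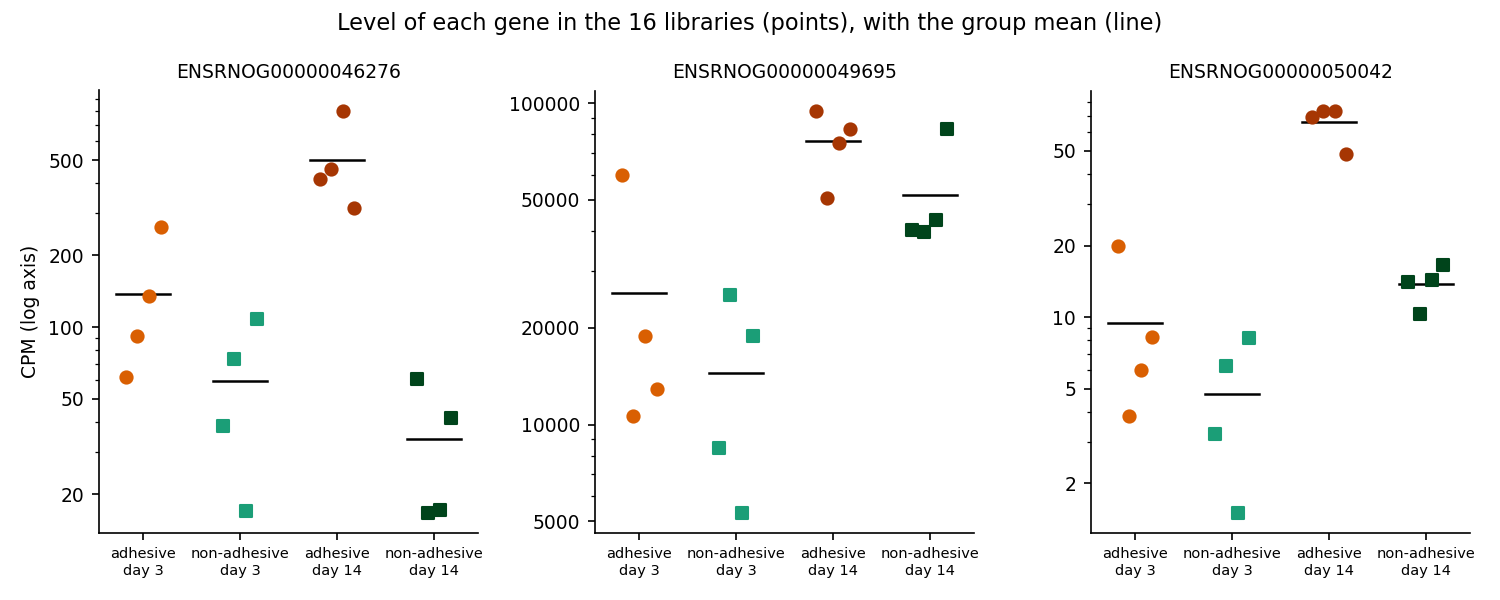
Level in CPM on a log axis (vertical) of each member in every library (points) by group (horizontal axis), with adhesive groups as circles, non-adhesive groups as squares and the group mean as a line. On day 14 the adhesive libraries of ENSRNOG00000046276 (313 to 805 CPM) and ENSRNOG00000050042 (48.6 to 73.9) lie above all non-adhesive libraries, and those of ENSRNOG00000049695 (50631 to 94867) overlap with them.

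From day 3 to day 14, ENSRNOG00000046276 rose under adhesive implants, with every day 14 library (313 to 805 CPM) above every day 3 library (61.5 to 263). The log2 fold change was 1.85 (SE 0.59) with an adjusted p of 0.0481 by edgeR, in a fit of all 16 libraries. In this comparison 8.12% of 14601 genes were called by edgeR, 11.3% by DESeq2 and 8.31% by limma-voom, and both of the latter also called this gene (adjusted p 0.00961 and 0.0487). The call is close to the limit, and 10 of 16 fits that each left out a library ended it, with adjusted p from 0.0365 to 0.145 and log2 fold changes from 1.52 to 2.34. Those that kept it were without adhesive replicate 4 or non-adhesive replicate 2, 3 or 4 of day 3, or without non-adhesive replicate 1 or 4 of day 14. Under non-adhesive implants ENSRNOG00000046276 did not pass the test, with a log2 fold change of -0.81 (SE 0.58, adjusted p 0.355 by edgeR) and overlapping ranges of 16.7 to 60.3 CPM on day 14 and 17.0 to 108 CPM on day 3.

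ENSRNOG00000049695 rose under non-adhesive implants, from 5323 to 25283 CPM on day 3 to 39657 to 83310 CPM on day 14 without overlap. The log2 fold change was 1.84 (SE 0.59) with an adjusted p of 0.0457 by edgeR, in a comparison in which 9.07% of 14601 genes were called. DESeq2 and limma-voom called it too (adjusted p 0.00571 and 0.0232), beside 11.6 and 9.4% of all genes. In 12 of 16 fits that left out a library it was no longer called, with adjusted p from 0.0196 to 0.128, and the 4 that kept the call were without adhesive replicate 1, 2 or 4 or non-adhesive replicate 2 of day 3. Without non-adhesive replicate 4 of day 14 the log2 fold change was 1.44 (adjusted p 0.0958). Under adhesive implants the log2 fold change was 1.57 (SE 0.59, adjusted p 0.0823 by edgeR) and the gene was not called. There, adhesive replicate 1 of day 3, at 59923 CPM, lay within the day 14 range of 50631 to 94867, and without it the log2 fold change was 2.38 and the adjusted p 0.0108. With all libraries, DESeq2 and limma-voom called the gene at adjusted p of 0.0208 and 0.0392.

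ENSRNOG00000050042 was higher on day 14 than on day 3 without overlap under both implants, at 48.6 to 73.9 against 3.83 to 19.9 CPM under adhesive and at 10.3 to 16.5 against 1.51 to 8.16 CPM under non-adhesive implants. The fitted log2 fold changes were 2.81 (SE 0.50) and 1.53 (SE 0.49), without a test. Among all 14601 genes, 25.5% did not overlap between the days under adhesive and 18.1% under non-adhesive implants. Of the 3 members, ENSRNOG00000046276 and ENSRNOG00000050042 were among the first and ENSRNOG00000049695 and ENSRNOG00000050042 among the second.

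The change of the implant effect from day 3 to day 14 was tested directly. For ENSRNOG00000046276 the difference of the 2 log2 fold changes was 2.66 (SE 0.83), with an unadjusted p of 0.0058 and an adjusted p of 0.761 by edgeR, so it did not pass the correction over 14601 genes. For ENSRNOG00000049695 it was -0.26 (SE 0.81, adjusted p 1.00 by edgeR), and for ENSRNOG00000050042 1.28 (SE 0.68) without a test. In this comparison 0.00685% of the genes (1) were called by edgeR, 0.171% by DESeq2 and 0.00685% by limma-voom. A larger effect on day 14 than on day 3 is not shown by this test for either of the 2 members tested.

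**Figure D3:**
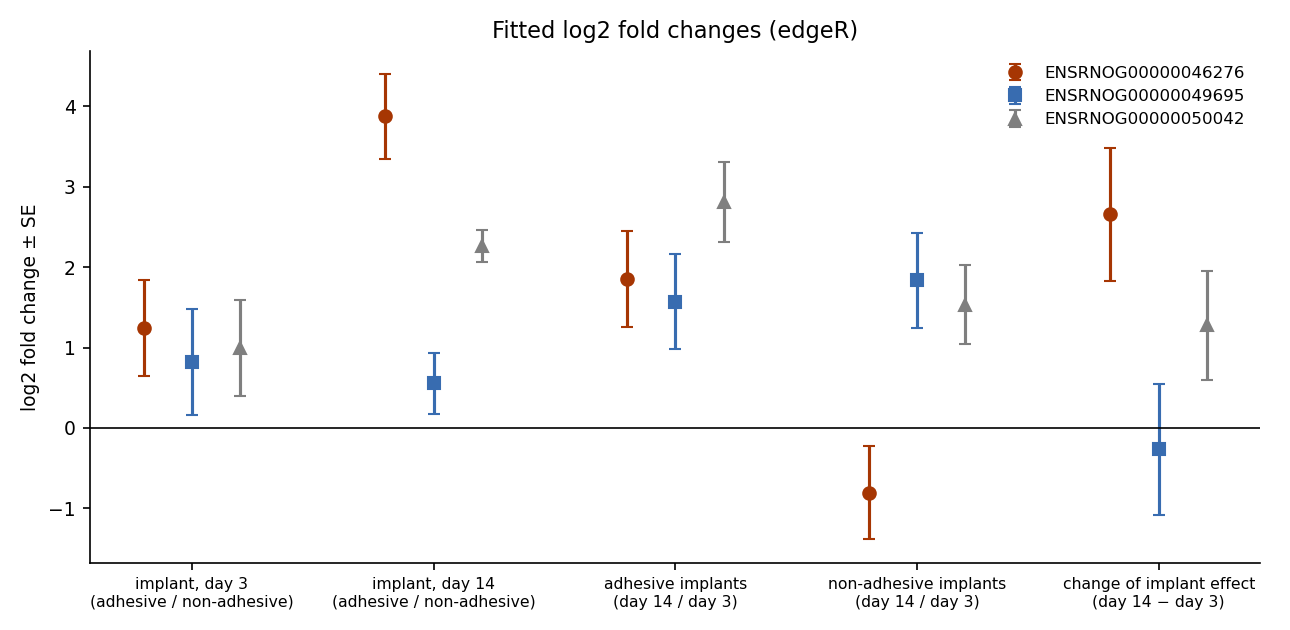
Fitted log2 fold change (vertical axis, error bars 1 SE, edgeR) of each member in the 5 comparisons (horizontal axis). ENSRNOG00000046276 reaches 3.87 between the implants on day 14, where ENSRNOG00000049695 is at 0.56, and it is the only member with a negative value (-0.81) between the days, under non-adhesive implants.

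Ordered by mean level, ENSRNOG00000046276 ran from adhesive day 14 over adhesive day 3 and non-adhesive day 3 down to non-adhesive day 14, and of the 3 neighbouring pairs only the first did not overlap. ENSRNOG00000050042 ran from adhesive day 14 over non-adhesive day 14 and adhesive day 3 down to non-adhesive day 3, again with only the first pair apart. ENSRNOG00000049695 followed the same order as ENSRNOG00000050042, and each of its neighbouring pairs overlapped.

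The ratio of 2 members within a library does not depend on the scaling of that library. ENSRNOG00000046276 per 1000 of ENSRNOG00000049695, both per kilobase, was 13.2, 27.1, 32.1 and 11.3 in the adhesive libraries of day 14 and 4.51, 1.27, 1.18 and 1.49 in the non-adhesive libraries. The groups did not overlap, and the means were 20.9 ± 10.2 and 2.11 ± 1.60 (SD, n = 4). On day 3 the ratio was 3.09, 25.8, 21.6 and 61.0 in adhesive and 13.7, 8.75, 9.60 and 17.3 in non-adhesive libraries, so that 3 adhesive libraries lay above and 1 below all non-adhesive ones. Under non-adhesive implants every library of day 14 lay below every library of day 3, and under adhesive implants the days overlapped. Of the cluster's summed level per kilobase, ENSRNOG00000046276 made up 2.03% ± 0.976 in adhesive and 0.211% ± 0.159 in non-adhesive libraries on day 14. The non-adhesive share was 0.131% without replicate 1, and on plain counts, not per kilobase, the shares were 0.690% and 0.0702%.

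ENSRNOG00000050042 per 1000 of ENSRNOG00000049695, both per kilobase, ranged from 2.39 to 5.97 in adhesive and from 0.810 to 1.43 in non-adhesive libraries of day 14, without overlap. On day 3 it ranged from 1.30 to 2.61 and from 1.00 to 1.77, which overlapped. Between the libraries of a group this ratio differed by 1.76-fold to 2.50-fold, where the level of ENSRNOG00000049695 itself differed by 1.87-fold to 5.61-fold. ENSRNOG00000046276 per ENSRNOG00000050042, per kilobase, was 4.43 to 8.03 in adhesive and 0.880 to 3.15 in non-adhesive libraries of day 14, and these ranges did not overlap.

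**Figure D4:**
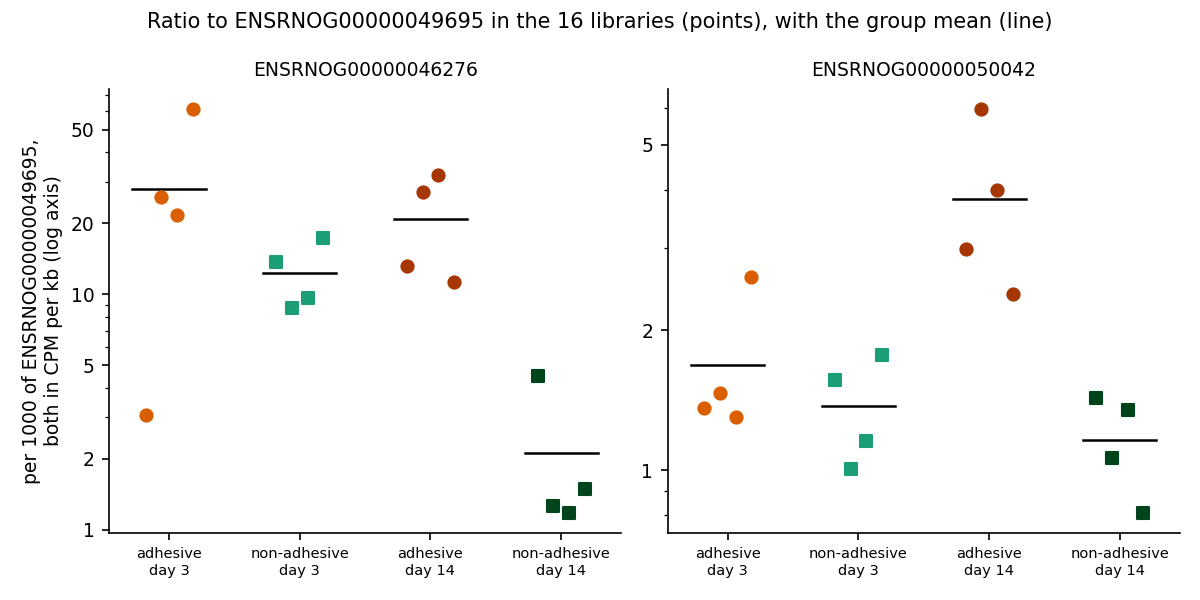
Level of ENSRNOG00000046276 (left) and ENSRNOG00000050042 (right) per 1000 of ENSRNOG00000049695, all in CPM per kilobase, on a log axis (vertical) in every library (points) by group (horizontal axis), with the group mean as a line. On day 14 the adhesive libraries lie at 11.3 to 32.1 and 2.39 to 5.97, above the non-adhesive libraries at 1.18 to 4.51 and 0.810 to 1.43.

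Across the 16 libraries, log2 CPM of ENSRNOG00000049695 and ENSRNOG00000050042 had a Pearson correlation of 0.895, and of 0.84 after each group's mean was taken out. For ENSRNOG00000046276 and ENSRNOG00000050042 the values were 0.683 and 0.44, and for ENSRNOG00000046276 and ENSRNOG00000049695 0.388 and 0.198. These are descriptions: the points share library, scaling and tissue sample, and possibly reads with several matches. In adhesive replicate 1 of day 3, ENSRNOG00000049695 was at its highest level of that group (59923 CPM) and ENSRNOG00000046276 at its lowest (61.5 CPM).

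**Figure D5:**
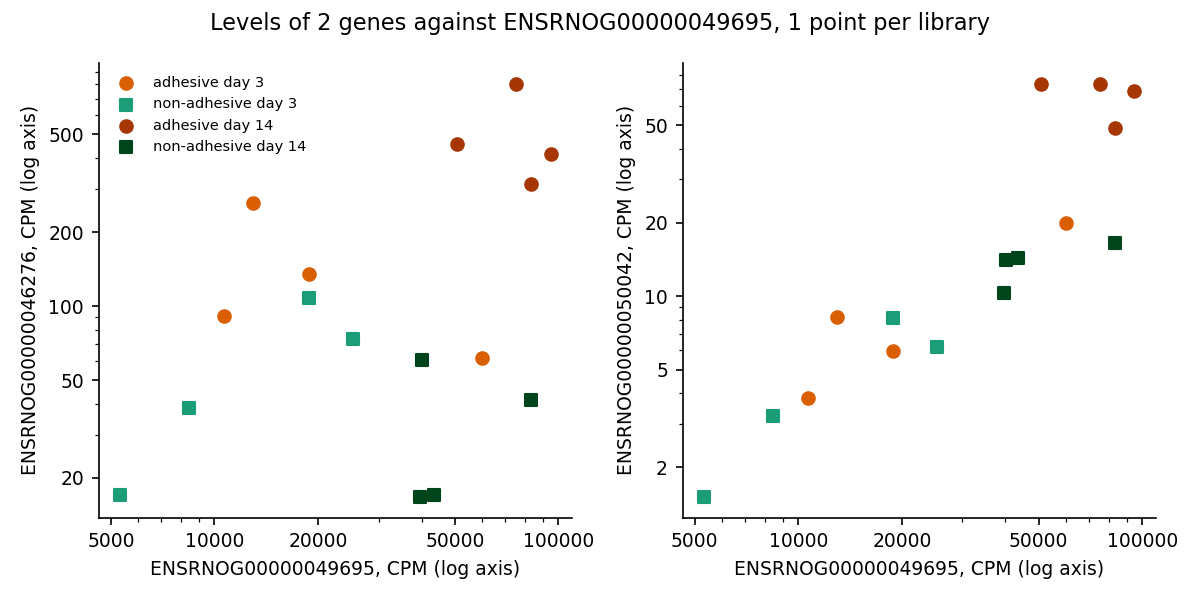
Level of ENSRNOG00000046276 (left) and ENSRNOG00000050042 (right) against the level of ENSRNOG00000049695 in CPM, both axes log, with 1 point per library (circles, adhesive groups; squares, non-adhesive groups). The points on the right rise together over the 16 libraries (r = 0.895 of log2 CPM), and those on the left are scattered (r = 0.388), with non-adhesive day 14 low.

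The genes most like each member over the 16 libraries were sought among 13147 genes with a mean of at least 1 CPM, and the correlation with group means taken out is given second. For ENSRNOG00000049695 they were ENSRNOG00000011227 (r = 0.989 and 0.981) and ENSRNOG00000005269 (0.986 and 0.962), both on chromosome 10, and Rtn4 (0.986 and 0.958), which encodes the membrane protein reticulon 4. For ENSRNOG00000050042 they were ENSRNOG00000025730 (0.951 and 0.783) and ENSRNOG00000037645 (0.940 and 0.719) on chromosome X and ENSRNOG00000009724 (0.938 and 0.771) on chromosome 5. For ENSRNOG00000046276 they were ENSRNOG00000022957 on chromosome 18 (0.892 and 0.787), ENSRNOG00000017699 on chromosome 1 (0.889 and 0.659) and ENSRNOG00000039388 on chromosome 4 (0.879 and 0.580). The last had 17.8 ± 10.8 CPM (SD, n = 4) under adhesive and 0.893 ± 0.740 CPM under non-adhesive implants on day 14. Only 2007 genes, those with the lowest identifier numbers, had a symbol in the table used here, so most of these are given without a name.

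Other genes of the muscle programme were looked up in 6 lists with 83 genes: heavy chains elsewhere in the genome, partners of myosin in fast and in slow fibres, genes of developing and regenerating muscle, myosin chaperones and thick filament genes, and regulators of the fast heavy chains. Symbols were at hand for 10 of the 83, all of which were tested, so no list is described as a whole. Between the implants 0 of the 10 were called by edgeR on either day, where 0.0% of all genes were called on day 3 and 0.266% on day 14. Without non-adhesive replicate 4, 3 of the 10 were called higher under adhesive implants on day 14, where 8.32% of all genes (1151) were called. These were Mb (log2 fold change 1.49, SE 0.25, adjusted p 0.0106 by edgeR), Myf5 (1.19, SE 0.30, adjusted p 0.0299) and Vgll2 (1.02, SE 0.29, adjusted p 0.0422). From day 3 to day 14, 4 were called higher and 1 lower under adhesive implants, beside 8.12% of all genes, and 3 higher and 2 lower under non-adhesive implants, beside 9.07%. Without that library the counts were 4 and 2, with Myf5 added to those lower, and 3 and 2, beside 10.5 and 9.72% of all genes. In the test of the difference between the implant effects, 0 of the 10 were called with and without it.

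Among the partners of myosin, Eno3, the muscle form of the glycolytic enzyme enolase, rose from 1374 ± 894 to 8522 ± 2614 CPM (SD, n = 4) under adhesive implants, a log2 fold change of 2.63 (SE 0.57, adjusted p 0.0101 by edgeR), and by 2.79 on the same scale (SE 0.57, adjusted p 0.00618) under non-adhesive implants. Mb, which encodes the oxygen store myoglobin, rose under adhesive implants by 3.02 on the log2 scale (SE 0.52, adjusted p 0.00366), from 933 ± 200 to 7543 ± 1179 CPM. Its log2 fold change under non-adhesive implants was 1.43 (SE 0.49, adjusted p 0.0580). Atp2a2, the calcium pump of slow fibres, rose under adhesive implants by 1.07 on the log2 scale (SE 0.34, adjusted p 0.0470), and its log2 fold change was 0.91 (SE 0.34, adjusted p 0.0778) under non-adhesive implants. Myh10, a non-muscle heavy chain outside the cluster, rose under both, with log2 fold changes of 1.18 (SE 0.27, adjusted p 0.0128) and 1.42 (SE 0.27, adjusted p 0.00431).

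Among the genes of developing and regenerating muscle, Runx1, a transcription factor, fell from day 3 to day 14 under both implants, with log2 fold changes of -1.46 (SE 0.40, adjusted p 0.0277 by edgeR) under adhesive and -2.58 (SE 0.42, adjusted p 0.00191) under non-adhesive implants. Myf5, a myogenic transcription factor of muscle precursor cells, fell under non-adhesive implants from 11.8 ± 6.72 to 2.99 ± 1.31 CPM (SE of the log2 fold change 0.42, adjusted p 0.00744) and had a log2 fold change of -1.21 (SE 0.41, adjusted p 0.0574) under adhesive implants. Mybph, a myosin-binding protein, was not called in any comparison of all libraries. Its level on day 14 was 345, 230, 576 and 114 CPM in adhesive and 135, 71.4, 163 and 45.6 CPM in non-adhesive libraries, with a log2 fold change of 1.60 (SE 0.55, adjusted p 0.207). Of the regulators, Prdm1, a transcriptional repressor, rose under non-adhesive implants by 1.07 on the log2 scale (SE 0.35, adjusted p 0.0455), and Vgll2 and Ppargc1a were not called in any comparison of all libraries.

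The levels of cell type markers stand beside those of the members. Myoglobin, the only 1 of 10 muscle fibre markers with a symbol, stood at 6411 to 9145 CPM in adhesive and 2054 to 6226 CPM in non-adhesive libraries of day 14, with a log2 fold change of 1.09 (SE 0.38, adjusted p 0.217 by edgeR). Without non-adhesive replicate 4 the non-adhesive range was 2054 to 3634 CPM, below every adhesive library. The summed level of 5 of 8 fibroblast markers was 1845 to 11234 CPM in adhesive and 2150 to 16094 CPM in non-adhesive libraries of day 14, and 3162 to 9793 and 4973 to 14085 CPM on day 3. Non-adhesive replicate 4 had the 2150 CPM of day 14, and replicates 1 to 3 had 14118 to 16094 CPM, more than any adhesive library. That library was marked out in part by this low sum, so the separation without it follows in part from the choice. The share of all genes standing apart without it was not counted. In the fit without it, Lum (log2 fold change -1.92, SE 0.45, adjusted p 0.0263 by edgeR) and Pdgfra (-1.70, SE 0.49, adjusted p 0.0429) were called lower under adhesive implants. Col1a1, Col3a1 and Dcn were not called, and 8.32% of all genes were. Ptprc was at 39.2 to 88.5 and 16.5 to 138 CPM on day 14, and 2 of 4 satellite cell markers (Myf5 and Chodl) summed to 8.63 to 11.9 and 3.92 to 9.97 CPM. Without non-adhesive replicate 4 the non-adhesive ranges were 64.5 to 138 CPM for Ptprc, which overlapped with adhesive, and 3.92 to 8.16 CPM for the satellite cell markers, which did not. Of these satellite cell markers, Myf5 was called there and Chodl was not (log2 fold change 0.39, SE 0.35, adjusted p 0.417 by edgeR). Myocd, the only 1 of 6 smooth muscle markers with a symbol, was at 0.610 to 2.12 and 0.409 to 0.831 CPM on day 14, and at 0.409 to 0.797 CPM in non-adhesive libraries without replicate 4. None of the markers with a symbol was at 0 in a whole group. Cardiac muscle, endothelial and mesothelial markers had no symbol here, and the part of any of these cells in the results above was not tested.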

How the data were processed

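Total RNA of 16 rat abdominal wall samples was sequenced after enrichment of polyadenylated RNA. The deposited values are whole-number counts per gene, which the authors made with bcl2fastq 2.17, Cutadapt, STAR and featureCounts. Strand setting and treatment of reads with several matches are not given in the sources used here. Groups follow the labels. The members and gene lists were chosen with earlier results of these data known.

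After filterByExpr and TMM scaling, the counts entered edgeR 4.0.16 (R 4.3.3) with its quasi-likelihood test in the robust form, each day alone for the implants and all 16 libraries for the days and the difference of the implant effects, with Benjamini-Hochberg adjustment over all genes tested. The study used DESeq2, run here (1.42.0) as an alternative beside limma-voom (limma 3.58.1), size factors of DESeq2, no filter, no fold change limit, other sets of libraries in the fit, the replicate number as a block and leaving out each library. Correlations used log2 CPM with a prior count of 2. The tests were checked on simulated counts with 200 changed genes. For the implants on day 14, edgeR recovered 160 of these with 7 false calls, DESeq2 175 with 35 and limma-voom 159 with 7. DESeq2 made the most false calls in each comparison simulated. The simulated counts were drawn for each gene on its own, with the spread that edgeR estimated, and no library was made to stand apart. They therefore cannot show which tool errs less on these data. From each pathway list up to 4 genes were to be named, called genes first, then those with the highest CPM. None of the 120 pairs of libraries held identical counts. Symbols came from the identifier and name columns of the part used here of the study's gene table, which is ordered by identifier. Its other columns hold the authors' fold changes, p values and normalized values and were not used. Promoters are from RefSeq (GRCr8). pandas 2.3.3, numpy 2.4.6 and matplotlib 3.10.9 were used.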

Additional observations from a re-analysis of the deposited data

Results flagged for a closer look

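In 76 sets of 4 libraries, Dixon's test at the 5% level marked 11 values as far from the other 3 of their group. Chance alone marks about 5% of separate sets. These sets are not separate, since levels, shares and ratios of the same genes are among them. The same deviation can be marked more than once, so the 11 cannot be set against that 5%. For ENSRNOG00000049695 these were adhesive day 3 replicate 1, at 59923 CPM where the others had 10673 to 18822, and non-adhesive day 14 replicate 4, at 83310 CPM where the others had 39657 to 43428. In non-adhesive day 14 replicate 1, ENSRNOG00000046276 took 0.448% of the cluster's level per kilobase (others 0.118 to 0.149%), ENSRNOG00000049695 took 99.4% (others 99.7 to 99.8%), and the first stood at 4.51 per 1000 of the second (others 1.18 to 1.49). In adhesive day 3 replicate 4, ENSRNOG00000050042 took 0.245% of the cluster (others 0.127 to 0.143%) and stood at 2.61 per 1000 of ENSRNOG00000049695 (others 1.30 to 1.47). The ratio of ENSRNOG00000046276 to ENSRNOG00000050042 per kilobase was 8.03 in adhesive day 14 replicate 3 (others 4.43 to 4.74). Outside the cluster, Eno3 was at 15652 CPM (others 5517 to 6122) and Runx1 at 3.32 CPM (median of the group 7.54) in non-adhesive day 14 replicate 4, and Mybph at 312 CPM (others 179 to 190) in adhesive day 3 replicate 3. Of these 11 values, 3 come from non-adhesive day 14 replicate 4. The causes were not tested.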

How the results depend on the processing

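Of 70 tested fold changes of ENSRNOG00000046276 and ENSRNOG00000049695 under the alternatives that kept all libraries, 62 kept their direction and side of the threshold, 6 lost the call and 2 gained it, and the cause was not tested. Most of the 70 belong to results that were not called in the main fit and had no call to lose. Dropping the fold change limit leaves the fold changes and adjusted p as they were. The 35 of ENSRNOG00000050042, which had no test, kept their direction and lay within 1 SE of the reported value. For ENSRNOG00000046276 the call between implants on day 14 was kept under DESeq2, limma-voom, DESeq2 size factors, no filter, no fold change limit and a fit of all 16 libraries. Its rise under adhesive implants lost the call without the filter on low counts (1.77, adjusted p 0.0715). The rise of ENSRNOG00000049695 under non-adhesive implants lost it without that filter (1.78, adjusted p 0.0653) and in the fit of that implant's libraries alone (1.80, adjusted p 0.0963). Its change under adhesive implants gained a call by DESeq2 (1.58, adjusted p 0.0208) and limma-voom (1.87, adjusted p 0.0392).

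The replicate block ended all 3 calls of the members: ENSRNOG00000046276 between implants on day 14 (3.99, adjusted p 0.142), the same gene between days under adhesive implants (2.06, adjusted p 0.0584) and ENSRNOG00000049695 between days under non-adhesive implants (1.83, adjusted p 0.0832). It changed the genes called on day 14 from 36 to 0, between days from 1186 to 796 and from 1325 to 950, and the change of the implant effect from 1 to 0. Deviations of samples with the same number correlated at -0.31 to 0.30 on day 3 and at -0.34 to 0.48 on day 14. Those of samples with different numbers correlated at -0.49 to 0.46 and at -0.57 to 0.55. These values cannot show whether samples with the same number share a rat or a batch.

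Leaving out 1 library moved the log2 fold changes of ENSRNOG00000046276 between 3.54 and 4.32 for implants on day 14, between 1.52 and 2.34 for days under adhesive implants, and those of ENSRNOG00000049695 between 1.30 and 2.38 under adhesive and 1.44 and 2.25 under non-adhesive implants. For ENSRNOG00000049695 the direction turned between implants on day 3 (-0.017 to 1.23) and in the change of the implant effect (-0.68 to 0.59), which was above 0 without adhesive day 3 replicate 1 (0.59), non-adhesive day 3 replicate 3 (0.036) or non-adhesive day 14 replicate 4 (0.096). For ENSRNOG00000050042, without adhesive day 3 replicate 1, it was 0.37 between implants on day 3 and 3.41 between days under adhesive implants. Genes called between implants on day 14 numbered 36, with 1 to 1151 when a library was left out and 1151 without non-adhesive replicate 4, 474 by DESeq2 and 216 in a fit of all 16 libraries. DESeq2 called 69 genes between implants on day 3 and 25 for the change of the implant effect, where edgeR called 0 and 1. Without a fold change limit the calls between days rose from 1186 to 2174 and from 1325 to 2561, and the non-adhesive libraries alone gave 575.

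Without TMM, the mean of ENSRNOG00000050042 in adhesive day 14 libraries was 52.7 CPM in place of 66.3. On plain counts 9 of 12 mean shares moved by more than 1 SD. All those of ENSRNOG00000046276 then were 0.913 and 0.408% on day 3 and 0.690 and 0.0702% on day 14 (adhesive and non-adhesive), those of ENSRNOG00000050042 0.0284 to 0.0929%, and those of ENSRNOG00000049695 99.0 to 99.9%. The counts of muscle genes called and the marker levels without non-adhesive day 14 replicate 4 were added after seeing the data.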
